A study of Mus musculus with 16 samples.

Results

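The genes described here are the mouse potassium channel genes, pore-forming and auxiliary subunits, that were expressed in sorted astrocytes of 2 regions, thalamus and spinal cord. They were chosen by name and by level: a gene's symbol had to match the Kcn pattern (letters followed by a number), and its measured FPKM had to reach 1 in at least 4 of the 16 libraries. FPKM is a read count scaled by transcript length and library size, so levels can be set side by side between genes. Of 39171 features in the table, 92 had such a symbol and 42 of these reached the minimum. The 42 members were 5 of 15 inward rectifiers, 2 of 14 two-pore channels, 6 of 8 calcium- or sodium-activated channels, 20 of 40 voltage-gated pore subunits and 9 of 15 auxiliary subunits.

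Each library held RNA of astrocytes sorted by flow cytometry at postnatal day 15 from a C57BL/6 mouse that carried 1 IL-33-mCherry reporter allele and the Aldh1l1-GFP transgene, which reports an astrocyte gene. The 4 groups, all of that genotype and age, were the IL-33-negative and the IL-33-positive cells of the thalamus and of the spinal cord. Each group had 4 libraries from 4 mice, and mice 1 to 4 each gave 1 library to every group. All cells carry the heterozygous reporter allele, and no source used here says how GFP entered the sort.

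Potassium channels let potassium ions cross the membrane along their electrochemical gradient. In astrocytes, weakly rectifying inward rectifier channels set a very negative resting potential and take up potassium that active neurons release, and they lie close to the water channel Aqp4 in end-feet. Kcnj10 encodes the main subunit of these channels, and Kcnj16 encodes a partner that forms mixed channels with it.

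The Kcnj10 and Kcnj16 start-site regions are shown because these genes are the marker pair of the group and were both called in 2 of the same comparisons below. The sequences are the 250 bases before a start site, 5′ to 3′ on the + strand, from RefSeq annotation of GRCm38.p6. Capitals mark motifs found by searching both strands. The GC box was searched as GGGCGG. The CCAAT box was searched as its name spells it. The TATA box was searched as TATAAA, and no motif contains another. The regions lie at chr1:172340960-172341209 for Kcnj10, and at chr11:111019335-111019584 and chr11:111023610-111023859 for sites 3 and 4 of the 4 annotated Kcnj16 start sites.
Kcnj10: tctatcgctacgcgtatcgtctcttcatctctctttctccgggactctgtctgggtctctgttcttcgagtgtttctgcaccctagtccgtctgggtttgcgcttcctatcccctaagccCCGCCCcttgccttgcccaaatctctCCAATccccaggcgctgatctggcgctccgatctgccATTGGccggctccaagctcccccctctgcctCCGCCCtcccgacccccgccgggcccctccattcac
Kcnj16 site 3: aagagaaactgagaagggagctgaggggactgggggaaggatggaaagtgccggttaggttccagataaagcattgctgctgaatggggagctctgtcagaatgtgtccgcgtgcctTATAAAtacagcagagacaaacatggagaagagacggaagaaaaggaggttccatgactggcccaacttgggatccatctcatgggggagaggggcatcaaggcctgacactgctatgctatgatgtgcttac
Kcnj16 site 4: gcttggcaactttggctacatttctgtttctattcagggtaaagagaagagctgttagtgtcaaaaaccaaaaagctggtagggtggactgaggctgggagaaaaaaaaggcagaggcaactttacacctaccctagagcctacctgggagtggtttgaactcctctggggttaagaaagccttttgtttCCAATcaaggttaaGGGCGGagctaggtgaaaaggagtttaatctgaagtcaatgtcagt
The Kcnj10 region held 17 CpG dinucleotides, 62% G or C, 2 GC boxes and 2 CCAAT boxes. The 4 Kcnj16 regions held 3, 7, 4 and 1 CpG, and the first and second held none of these motifs. Over 32851 RefSeq regions of the same length, the median was 6 CpG and 52.4% G or C, a GC box was present in 32.7%, a CCAAT box in 33.8% and a TATA box in 12.4%. A match is a description of letters and was not tied to any value here.

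Levels among the 42 members spread widely (the plot of the 6 most abundant members). Averaged over the 16 libraries, 4 members were at 100 FPKM or more, 10 between 10 and 100, 23 between 1 and 10, and 5 under 1. The highest was Kcnj10 at 606 FPKM, followed by Kcnip3 at 514, Kcnk1 at 167, Kcnj16 at 146, Kcnn2 at 47.4 and Kcnt1 at 45.5. Kcnip3 encodes a calcium-binding protein that attaches to voltage-gated channels and also binds DNA. The first 4 of these took 68.1% to 88.8% of the summed member FPKM of a library, with the lowest shares in thalamus positive libraries (68.1% to 72.5%).

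**Figure D1:**
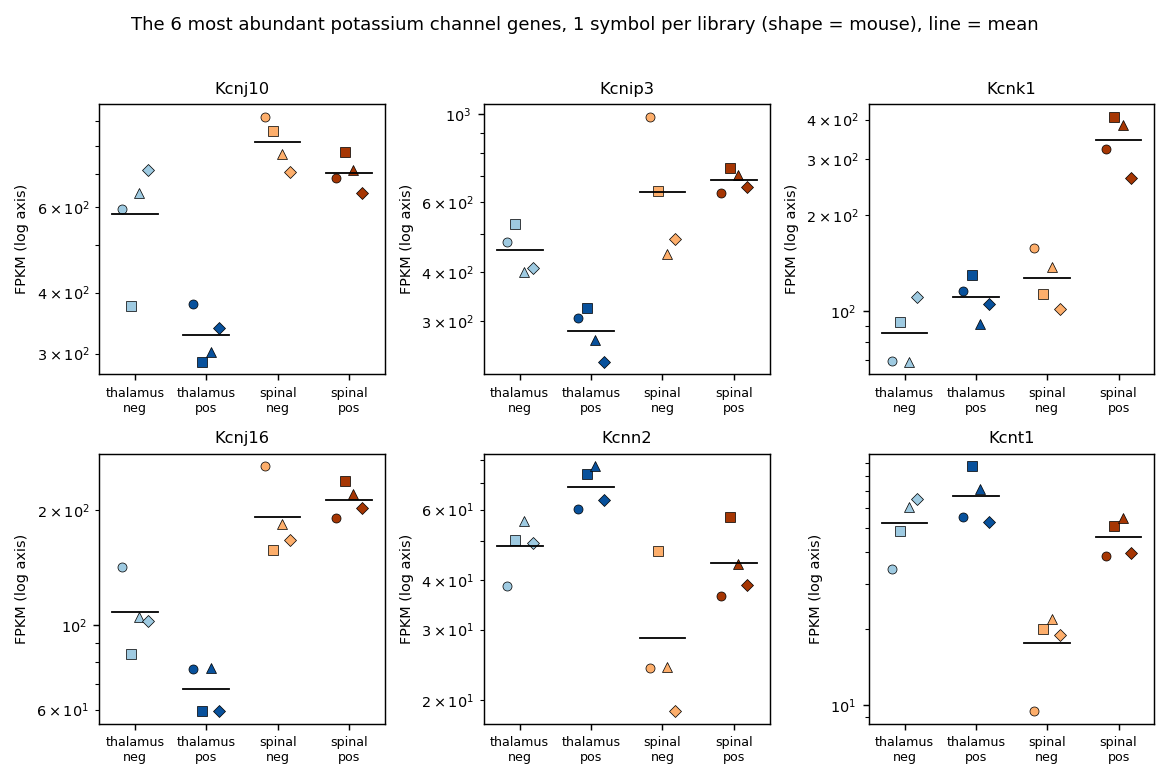
FPKM on a log axis of the 6 potassium channel genes with the highest mean, by group; each symbol is 1 library, its shape the mouse, and the line the group mean. Kcnj10, Kcnj16 and Kcnip3 are lowest in the thalamus positive libraries, Kcnk1 is highest in the spinal cord positive libraries, and Kcnt1 is lowest in the spinal cord negative libraries.

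How far a member passed the level minimum differed. There were 24 members at 1 FPKM or more in all 16 libraries. Kcna1, Kcnab2, Kcnj3, Kcnj8, Kcnmb1 and Kcnt2 reached it in negative libraries only, and Kcnt2 in 1 group only, the spinal cord negative one. Kcnh5 and Kcnh7 reached it in thalamus libraries only, and Kcns3 would not have entered without the thalamus positive group. A gene that entered through 1 gate or 1 region in this way was bound to be lower in the other. Counts of called members therefore describe the selection as well as the groups. Just inside the minimum, the fourth-highest values were 1.00 for Kcnn1, 1.02 for Kcnt2 and 1.10 for Kcnab2. Just outside they were 0.961 for Kcnu1, 0.907 for Kcnj14 and 0.774 for Kcnk6. Of the 50 rows left out, 3 were listed at 0 in all libraries, and the highest single value was 5.50 FPKM, for Kcnj12 in a spinal cord negative library.

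The libraries had summed FPKM of 984986 to 2344480 and 13260 to 14731 features at 1 FPKM or more, and sequencing depth is unknown. Genes encoded by the mitochondrial genome took 43.7% to 73.9% of it. Their share was 56.7% to 73.9% in thalamus negative and 51.3% to 56.7% in thalamus positive libraries. In the spinal cord it was 46.7% to 71.8% in negative and 43.7% to 49.2% in positive libraries. The positive libraries of the 2 regions did not overlap in this share, so region and share cannot be told apart between them. Both negative libraries of mouse 1 stood apart, with shares of 73.9% (thalamus) and 71.8% (spinal cord) where the other 14 had at most 62.6%, and with the highest summed FPKM. The counts of members called were 10 rather than 9 in the thalamus gate comparison without the first of these libraries, and 9 rather than 11 in the spinal cord one without the second. Over all features, the calls were 4855 rather than 4119 and 2931 rather than 3196, so they moved the same way. Calls of a described gene that were lost without 1 of them are given with that gene, and the part of this share in any value was not tested. Il33 itself overlapped between the gates of both regions (medians of 17.1 and 27.0 FPKM in thalamus negative and positive, and 21.0 and 27.9 in spinal cord negative and positive libraries), so positive and negative are used as the labels give them. All 12 astrocyte markers (such as Aqp4, Slc1a3 and Aldoc) reached the minimum. Their summed FPKM was 4928 to 5972 in thalamus negative and 4737 to 5571 in thalamus positive libraries, with overlap. In the spinal cord it was 5747 to 7417 in negative and 8227 to 9089 in positive libraries, which were above all others. In the thalamus gates, 3 of the 12 were called higher in positive libraries and 2 lower (11.6% and 13.6% of all features). In the spinal cord gates, 5 of the 12 were called higher in positive libraries and 1 lower (9.04% and 10.5% of all features). Between positive libraries, 6 were called higher in the spinal cord and 1 lower (4.22% and 1.88%). The negative libraries also held other cell types' markers. The 12 oligodendrocyte markers (such as Mbp) summed to 478 to 992 FPKM in thalamus negative against 79.8 to 116 in thalamus positive libraries, and to 3557 to 3756 in spinal cord negative against 160.2 to 172 in spinal cord positive libraries. The 8 oligodendrocyte precursor markers summed to 227 to 322 against 144 to 234 FPKM in the thalamus, with overlap, and to 480 to 550 against 221 to 269 in the spinal cord. The 9 ependymal markers (such as Foxj1) summed to 332 to 612 against 6.86 to 8.57 FPKM in the thalamus and to 110.0 to 156 against 3.97 to 6.71 in the spinal cord. The 8 mural markers summed to 84.3 to 113 against 10.2 to 14.5 FPKM in the thalamus and to 44.7 to 109.8 against 12.8 to 15.9 in the spinal cord. Endothelial markers (8) summed to 9.04 to 17.2 FPKM in thalamus negative against 3.79 to 4.90 in thalamus positive libraries, and to 21.4 to 38.3 against 3.19 to 4.80 in those of the spinal cord. Neuronal markers (10) were at 28.7 to 87.2 against 11.2 to 17.4 FPKM and at 39.1 to 57.5 against 21.2 to 30.2. The 9 microglial markers overlapped between the gates of both regions, at 16.6 to 36.6 FPKM over all libraries. Slc32a1, a marker of inhibitory neurons, was listed at 0 throughout both thalamus groups and C1qa, of microglia, throughout the spinal cord negative group, and no other marker was at 0 throughout a group. These are bulk libraries, in which fewer cells of a type and less RNA per cell cannot be told apart. The part that astrocytes or these other cell types have in any member's difference between gates or regions was not tested.

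Changes were tested with limma on log2(FPKM + 1) over all 16340 features at the minimum, and called at a Benjamini-Hochberg adjusted p under 0.05. Each feature had 1 spread shared by the 4 groups, so its SE and p do not follow a difference in spread between groups. Because 1 is added before the log, folds of genes near or under 1 FPKM come out smaller than their ratios of means. In the thalamus, 2 of the 42 members were called higher in positive than in negative libraries, where 11.6% of all features were, and 7 were called lower, against 13.6%. In the spinal cord, 5 were called higher in positive libraries, against 9.04% of all features, and 6 lower, against 10.5%. The median log2 fold change of the members was -0.05 in the thalamus, with 0.06 over all features, and 0.10 in the spinal cord, with 0.09 over all features. Between regions, 4 members were called higher in spinal cord than thalamus negative libraries (5.27% of all features) and 4 lower (4.54%). In the positive libraries 6 were called higher in the spinal cord (4.22% of all features) and 2 lower (1.88%). For the difference between the gates of the 2 regions, no member was called higher (0 of 42, 1.13% of all features) and 1 lower (1.43%). For this difference 11 members (26.2%) had an unadjusted limma p under 0.05, where 14.7% of all features had. In the thalamus gates these shares were 26.2% and 37.8%, and in the spinal cord gates 40.5% and 32.6%. Between negative libraries they were 38.1% and 23%, and between positive libraries 40.5% and 18%. The comparisons of gates and of regions share libraries, so a gene low in 1 group can be called in both.

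**Figure D2:**
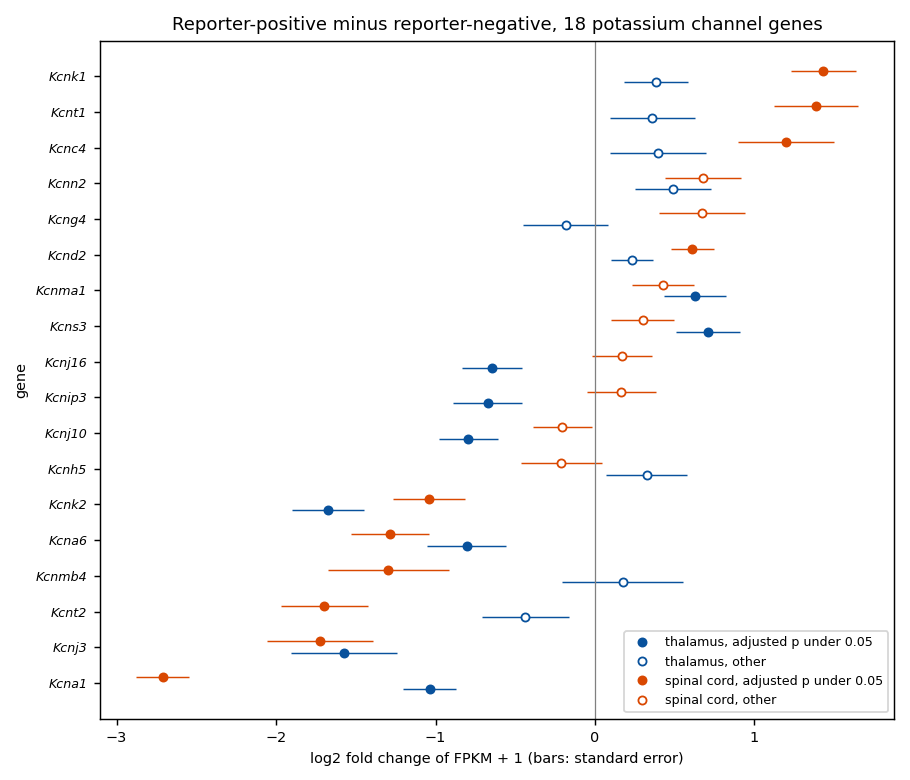
Log2 fold change of FPKM + 1, positive minus negative, for 18 members called in at least 1 comparison; bars are standard errors and filled points have an adjusted p under 0.05. Kcna1, Kcnj3, Kcna6 and Kcnk2 are called lower in positive libraries of both regions, and no member is called higher in both.

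Among the inward rectifiers, Kcnj10 had 593, 375, 641 and 713 FPKM in the thalamus negative libraries of mice 1 to 4, and 379, 289, 303 and 338 in the thalamus positive ones. The 2 groups overlapped only in the negative library of mouse 2, and in each mouse the positive library was the lower. Means were 581 ± 145 and 327 ± 40.3 FPKM (SD, n = 4), a log2 fold change of -0.79 ± 0.19 (SE; limma adjusted p = 0.00657). In the two-sided exact permutation test of these FPKM values the p was 0.0571, where 4 against 4 libraries allow no p below 0.0286; over the 8 such tests of Kcnj10 and Kcnj16 the Benjamini-Hochberg adjusted p ran from 0.0571 to 0.429. Leaving out all libraries of mouse 3 or of mouse 4 ended the limma call (adjusted p = 0.0918 and 0.0633).

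Spinal cord Kcnj10 stood at 918, 859, 771 and 707 FPKM in negative and 687, 777, 714 and 639 in positive libraries. These groups overlapped, and the difference did not pass (log2 fold change -0.20 ± 0.19, limma adjusted p = 0.484, lower in positive in 4 of 4 mice). Set between regions, every spinal cord positive library was above every thalamus positive library, by 1.11 ± 0.19 on the log2 scale or 2.15 times in mean FPKM (limma adjusted p = 0.00200, higher in 4 of 4 mice, exact permutation p = 0.0286). This call ended without mouse 3 (adjusted p = 0.0613). In negative libraries the spinal cord value was 1.40 times the thalamus one, with overlap, and was not called (adjusted p = 0.0990).

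Kcnj16 had 142, 84.0, 105 and 102 FPKM in thalamus negative libraries and 76.6, 59.3, 77.3 and 59.4 in thalamus positive ones. The positive libraries were all below the negative ones. The means were 108 ± 24.3 and 68.2 ± 10.2 FPKM (SD, n = 4), with a log2 fold change of -0.65 ± 0.19 (limma adjusted p = 0.0218, lower in 4 of 4 mice, exact permutation p = 0.0286). The call ended when 1 positive library was left out, from mouse 2 or mouse 4 (to an adjusted p of 0.0621 and 0.0658), when all libraries of mouse 3 or mouse 4 were (0.0882 and 0.133), and in a fit of the thalamus libraries alone (0.0548).

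Spinal cord Kcnj16 was at 261, 158, 184 and 167 FPKM in negative and 191, 239, 220.3 and 203 in positive libraries, which overlapped (log2 fold change 0.17 ± 0.19, limma adjusted p = 0.576). Its gate change in the spinal cord minus that in the thalamus was 0.82 ± 0.27 on the log2 scale and was not called (adjusted p = 0.143), but it was once the negative spinal cord library of mouse 1 was left out (0.0447). Between regions, Kcnj16 was higher in every spinal cord library than in every thalamus library. In positive libraries the ratio of means was 3.13 and the log2 fold change 1.64 ± 0.19 (limma adjusted p = 7.35e-05, 4 of 4 mice), a call held in every alternative run. In negative libraries these were 1.78 and 0.82 ± 0.19 (adjusted p = 0.0118, 4 of 4 mice). That call ended without mouse 2, 3 or 4 (0.0513, 0.0869 and 0.0714) and in a fit of the negative libraries alone (0.133).

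The ratio of Kcnj16 to Kcnj10 FPKM, the accessory to the main subunit, was 0.144 to 0.239 in thalamus negative, 0.175 to 0.255 in thalamus positive, 0.184 to 0.284 in spinal cord negative and 0.278 to 0.318 in spinal cord positive libraries. The spinal cord positive libraries had the highest ratios, overlapping the spinal cord negative ones narrowly and the thalamus ones not at all. This ratio was not tested. Kcnj10 took 24.6% to 42.9% of the summed member FPKM in any library.

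Kcnj3, a subunit of G protein-gated channels, was at 2.87, 0.861, 5.82 and 1.54 FPKM in thalamus negative and 0.0619, 0.0374, 0.314 and 0.0915 in thalamus positive libraries. In the spinal cord it was at 2.23, 1.93, 2.95 and 5.27 FPKM in negative and 0.115, 0.234, 0.172 and 0.229 in positive libraries. No positive library of either region reached the lowest negative one. It was lower in positive libraries by -1.58 ± 0.33 on the log2 scale in the thalamus (limma adjusted p = 0.00330) and by -1.72 ± 0.33 in the spinal cord (0.00197), in 4 of 4 mice each. Both calls held in all alternatives run. Kcnj3 entered the selection through negative libraries only, its exons overlap those of a noncoding gene on the other strand, and whether counting used strand is unknown.

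The other inward rectifiers were not called in any comparison and varied among libraries. Kcnj8, the pore subunit of ATP-sensitive channels of mural cells, ranged from 0 to 7.59 FPKM and was listed at 0 in 3 libraries. Kcnj13 ranged from 0.0851 to 15.8 FPKM, and both of these ends lay among the thalamus negative libraries.

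Of the two-pore channels, which carry background potassium current, Kcnk1 had its highest levels in spinal cord positive libraries. It was at 324, 409, 385 and 263 FPKM there and at 157, 113, 137 and 101 in spinal cord negative libraries, with no overlap. The means were 345 ± 65.6 and 127 ± 25.1 FPKM (SD, n = 4), a 2.71-fold ratio and a log2 fold change of 1.43 ± 0.20 (limma adjusted p = 0.000158, higher in 4 of 4 mice). In the thalamus, Kcnk1 stood at 69.6, 92.3, 69.2 and 110.4 FPKM in negative and 116, 129.5, 90.9 and 106 in positive libraries, and the overlapping groups did not pass (0.38 ± 0.20, adjusted p = 0.180).

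The difference between the 2 gate changes of Kcnk1 was 1.05 ± 0.29 on the log2 scale, with a limma adjusted p of 0.0718. Between positive libraries, the spinal cord level was 3.12 times the thalamus level (1.63 ± 0.20, adjusted p = 0.000147, 4 of 4 mice). Both Kcnk1 calls held in all alternatives run. The authors' deposited table of 444 features compares positive with negative libraries and gives 1 fold change a feature, not 1 for each region. Its largest adjusted p was 0.00976, so it cannot show that members missing from it did not differ. Kcnk1 was its only potassium channel gene, with a log2 fold change of 1.04 ± 0.319 (SE) and an adjusted p of 0.00586. Exons of Kcnk1 overlap an antisense gene, as do those of Kcnk2.

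Kcnk2, a mechanosensitive channel of the same class, went the other way. It was at 4.65, 8.11, 6.19 and 8.31 FPKM in thalamus negative and 1.21, 2.01, 1.63 and 0.890 in thalamus positive libraries, and at 4.79, 2.36, 2.47 and 3.40 in spinal cord negative and 1.02, 1.19, 1.01 and 0.866 in spinal cord positive ones. Neither region's gates overlapped. Kcnk2 was lower in positive libraries by -1.67 ± 0.23 in the thalamus (limma adjusted p = 0.000107) and -1.04 ± 0.23 in the spinal cord (0.00459), in 4 of 4 mice each and in all alternatives run.

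In negative libraries, Kcnk2 was also called lower in the spinal cord than in the thalamus (-0.88 ± 0.23, limma adjusted p = 0.0214), in 3 of 4 mice, with overlap. It falls outside the naming rule here and was chosen after its values were seen. This call ended without the thalamus negative library of mouse 2 or 4 (0.0542 and 0.0529), without the negative spinal cord library of mouse 2 or 3 (0.0579 and 0.0567), without mouse 2, 3 or 4 (0.123 to 0.157) and in a fit of the negative libraries alone (0.224).

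**Figure D3:**
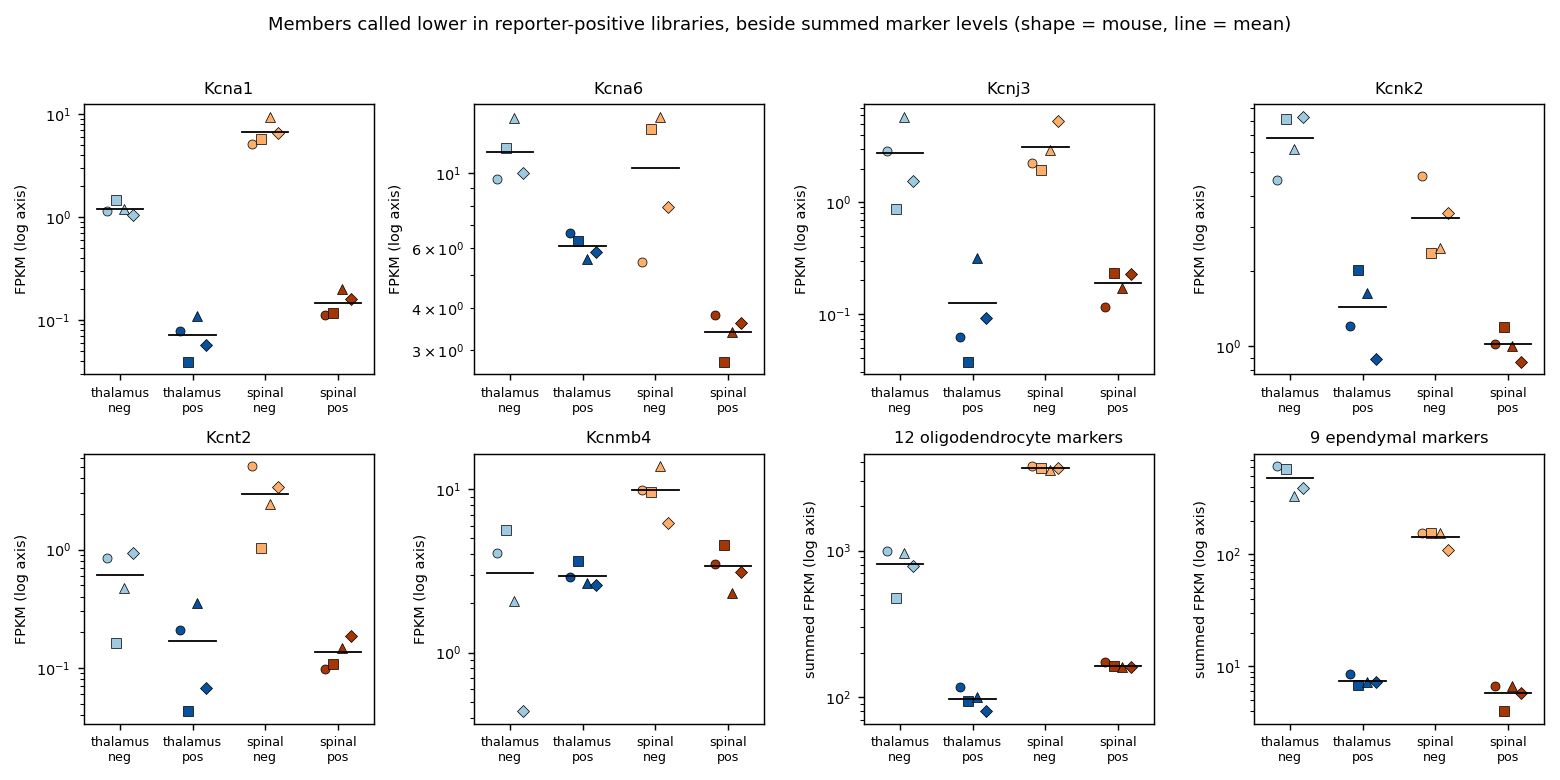
FPKM on a log axis of 6 members called lower in reporter-positive libraries, and in the last 2 panels the summed FPKM of 12 oligodendrocyte and 9 ependymal markers; each symbol is 1 library, its shape the mouse, and the line the group mean. Kcna1 and the oligodendrocyte markers have their highest means in the spinal cord negative libraries, and Kcnk2 and the ependymal markers in the thalamus negative ones. Of the lists not drawn, precursor and endothelial markers also have their highest median sum in spinal cord negative libraries. Mural and neuronal markers have theirs in thalamus negative libraries. The part of any cell type in these members was not tested.

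The calcium- or sodium-activated channels held the fifth and sixth most abundant members. Kcnt1, a sodium-activated channel, was at 34.4, 48.6, 60.1 and 64.9 FPKM in thalamus negative, 55.3, 87.2, 70.8 and 52.8 in thalamus positive, 9.43, 19.9, 21.8 and 19.0 in spinal cord negative and 38.5, 50.8, 54.3 and 39.8 in spinal cord positive libraries. The spinal cord negative libraries were below all others. Kcnt1 was 2.62 times higher in spinal cord positive than negative libraries (1.39 ± 0.27, limma adjusted p = 0.00192, 4 of 4 mice), in all alternatives run. It was lower in spinal cord than thalamus negative libraries (-1.54 ± 0.27, adjusted p = 0.00157, 4 of 4 mice), which shares those low libraries and ended in a fit of the negative libraries alone (0.0521). In the thalamus its gates overlapped (0.36 ± 0.27, adjusted p = 0.346), and the difference between the gate changes was not called (1.03 ± 0.38, adjusted p = 0.201).

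Its relative Kcnt2 had the opposite distribution, at 5.05, 1.02, 2.43 and 3.37 FPKM in spinal cord negative libraries and at most 0.186 in spinal cord positive ones. In the thalamus it was at 0.857, 0.164, 0.469 and 0.937 FPKM in negative and 0.208, 0.0429, 0.357 and 0.0680 in positive libraries. The spinal cord negative libraries were above all others, and they alone carried Kcnt2 past the minimum. It was lower in spinal cord positive than negative libraries by -1.70 ± 0.27 (limma adjusted p = 0.000492, 4 of 4 mice), in all alternatives run. Spinal cord negative libraries were higher than thalamus negative ones by 1.23 ± 0.27 (adjusted p = 0.00978, 4 of 4 mice), a call that ended without mouse 1, 3 or 4 (0.0502, 0.0772 and 0.0687) and in a fit of the negative libraries alone (0.171).

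Kcnn2, a small-conductance calcium-activated channel, was at 38.6, 50.4, 56.1 and 49.4 FPKM in thalamus negative, 60.2, 73.5, 77.0 and 63.4 in thalamus positive, 24.0, 47.1, 24.2 and 18.7 in spinal cord negative and 36.4, 57.4, 43.7 and 38.8 in spinal cord positive libraries. In each mouse the positive library was the higher in both regions, but neither gate comparison passed (limma adjusted p = 0.145 for the thalamus and 0.0603 for the spinal cord). In negative libraries Kcnn2 was called lower in the spinal cord (-0.82 ± 0.24, adjusted p = 0.0406, 4 of 4 mice), with overlap at the spinal cord library of mouse 2. This call was lost in 18 of 26 alternatives, with adjusted p up to 0.246 in a fit of the negative libraries alone. Among these were leaving out the negative library of mouse 2, 3 or 4 in the thalamus (0.0765, 0.0842 and 0.0701) or of mouse 1, 3 or 4 in the spinal cord (0.0833, 0.0866 and 0.108), any thalamus positive library (0.0530 to 0.0554), and the spinal cord positive library of mouse 1, 3 or 4 (0.0505, 0.0574 and 0.0545).

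Kcnma1, the large-conductance calcium-activated channel, was at 13.1, 8.12, 8.77 and 7.54 FPKM in thalamus negative and 17.1, 14.6, 14.9 and 12.6 in thalamus positive libraries. The groups overlapped at the negative library of mouse 1, and each mouse had the higher level in its positive library. The change was 0.63 ± 0.19 (limma adjusted p = 0.0296) and was lost in 10 of 26 alternatives: without the negative library of mouse 2, 3 or 4 or the positive library of mouse 1, 2 or 3 (0.0587 to 0.0850), without mouse 2, 3 or 4 (0.0693 to 0.159), and in a fit of the thalamus libraries alone (0.0703). Its spinal cord levels of 7.31 to 12.7 FPKM in negative and 11.2 to 13.3 in positive libraries overlapped. Kcnn3 ranged from 8.49 to 46.9 FPKM and Kcnn1 from 0.102 to 1.72, and neither was called in any comparison. Exons of Kcnma1, Kcnn2 and Kcnt2 overlap a gene on the other strand.

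Of the voltage-gated pore subunits, Kcna1 differed most in fold. This delayed rectifier subunit was at 1.13, 1.44, 1.18 and 1.03 FPKM in thalamus negative and 0.0786, 0.0391, 0.110 and 0.0566 in thalamus positive libraries, and at 5.12, 5.68, 9.38 and 6.49 in spinal cord negative and 0.112, 0.115, 0.200 and 0.161 in spinal cord positive ones. The gates were far apart in both regions, and the 2 negative groups did not overlap. Mean FPKM was 16.9 times lower in thalamus positive than negative libraries (log2 fold change -1.03 ± 0.17, limma adjusted p = 0.000451) and 45.4 times lower in spinal cord positive than negative ones (-2.71 ± 0.17, adjusted p = 3.70e-08), in 4 of 4 mice each. The thalamus value falls outside the naming rule, since its higher group is under 2 FPKM, and was chosen after its values were seen.

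The gate change of Kcna1 was larger in the spinal cord by -1.68 ± 0.23 on the log2 scale (limma adjusted p = 0.00138), the 1 member called for this difference. With a pseudocount of 0.1 in place of 1, or with only features at 5 FPKM or more in 4 libraries, this call ended (0.0621 and 0.0680). Spinal cord negative libraries were 5.56 times the thalamus negative ones (1.78 ± 0.17, adjusted p = 7.14e-06, 4 of 4 mice). Positive libraries of the 2 regions, all far under 1 FPKM, differed by 0.10 ± 0.17. The difference of gates therefore largely restates the one between negative libraries, and the 2 comparisons are not separate results for Kcna1. Some markers of 3 cell types were called in the direction of Kcna1 in both of these comparisons, and ependymal markers in the other direction. Called higher in spinal cord than thalamus negative libraries (5.27% of all features) were 12 of 12 oligodendrocyte, 5 of 8 precursor and 4 of 8 endothelial markers. Called for the difference of gates in the direction of Kcna1 (1.43% of all features) were 8, 4 and 2 of them. Of 9 ependymal markers, 7 were called lower in spinal cord than thalamus negative libraries (4.54% of all features). For the difference of gates, 5 of these 9 were called higher (1.13%). Of 12 astrocyte markers, 2 were called higher and 1 lower between negative libraries, and 1 higher for the difference of gates. Kcna1 entered the selection through negative libraries only, and the part of any of these cell types in its values was not tested.

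Kcna6, of the same family, was at 9.58, 11.9, 14.6 and 10.0 FPKM in thalamus negative and 6.65, 6.27, 5.57 and 5.84 in thalamus positive libraries, and at 5.45, 13.5, 14.6 and 7.91 in spinal cord negative and 3.80, 2.77, 3.40 and 3.61 in spinal cord positive ones. The gates did not overlap in either region. In the spinal cord it was lower in positive libraries by -1.29 ± 0.25 (limma adjusted p = 0.00189, 4 of 4 mice), in all alternatives run. The thalamus change of -0.81 ± 0.25 (adjusted p = 0.0272, 4 of 4 mice) was lost without the negative library of mouse 2 or 3 (0.0501 and 0.0729), the positive library of mouse 2, 3 or 4 (0.0523, 0.0698 and 0.0633) or all of mouse 2, 3 or 4 (0.0896 to 0.145). Exons of Kcna6 overlap an antisense gene.

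Kcnd2 and Kcnc4 encode subunits of fast, A-type channels. Kcnd2 was at 20.6, 15.6, 17.3 and 18.8 FPKM in thalamus negative, 22.1, 23.2, 20.5 and 19.4 in thalamus positive, 14.0, 10.7, 10.6 and 10.8 in spinal cord negative and 17.9, 18.7, 19.1 and 16.6 in spinal cord positive libraries. The spinal cord negative libraries were below all others. It was higher in spinal cord positive than negative libraries (0.61 ± 0.13, limma adjusted p = 0.00505) and lower in spinal cord than thalamus negative ones (-0.61 ± 0.13, adjusted p = 0.00932), in 4 of 4 mice each. The first call ended without mouse 3 (0.0789), and the second without mouse 3 or 4 (0.0871 and 0.0975) or in a fit of the negative libraries alone (0.171).

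Kcnc4 was at 21.8, 20.5, 23.5 and 22.7 FPKM in spinal cord positive libraries and 11.4, 6.74, 7.79 and 11.1 in spinal cord negative ones. In the thalamus it was at 4.04, 4.87, 14.3 and 10.8 FPKM in negative and 10.6, 8.09, 10.5 and 12.1 in positive libraries, so the spinal cord positive libraries were above the other 12. The spinal cord gates differed by 1.20 ± 0.30 (limma adjusted p = 0.0117, 4 of 4 mice), a call that ended without mouse 2, 3 or 4 (0.0609, 0.0538 and 0.0512). The difference between positive libraries of the regions did not pass (1.04 ± 0.30, adjusted p = 0.0562).

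Kcng4 and Kcns3 encode silent subunits, which form channels only together with other voltage-gated subunits. Kcng4 was at 16.5, 18.4, 18.4 and 15.6 FPKM in spinal cord positive and 7.59, 6.00, 5.99 and 7.29 in thalamus positive libraries, with no overlap, and was higher in the spinal cord by 1.24 ± 0.27 (limma adjusted p = 0.0109, 4 of 4 mice). Its negative libraries ranged from 5.43 to 14.5 FPKM in the thalamus and from 7.44 to 16.2 in the spinal cord. The call ended without mouse 2 or 3 (0.118 and 0.128). Kcng3, a silent subunit too, stood at 8.40 to 12.1 FPKM in spinal cord positive and 0.745 to 2.91 in thalamus positive libraries and did not pass (2.00 ± 0.58, adjusted p = 0.0553).

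Kcns3 was at 2.30, 2.02, 1.92 and 2.97 FPKM in thalamus positive and 0.596, 0.927, 0.997 and 1.63 in thalamus negative libraries, and at 0.666, 0.394, 0.638 and 1.07 in spinal cord positive and 0.620, 0.0918, 0.498 and 0.292 in spinal cord negative ones. The thalamus positive libraries were above all others, and each mouse had the higher level in its positive library in the thalamus. Kcns3 would not have reached the minimum without the thalamus positive group, so both of its calls run the way the selection favoured. Kcns3 was higher in thalamus positive than negative libraries by 0.71 ± 0.20 (limma adjusted p = 0.0176) and lower in spinal cord than thalamus positive ones (-0.97 ± 0.20, adjusted p = 0.00809, 4 of 4 mice). The first call ended without the thalamus positive library of mouse 4 (0.0607), without mouse 1, 2 or 3 (0.0834, 0.0529 and 0.0823), with a pseudocount of 0.1 (0.0786) and in a fit of the thalamus libraries alone (0.0510). The second ended without mouse 2 or 3 (0.0731 and 0.0915).

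Kcnh5, an ether-a-go-go type channel, was at 1.54, 2.86, 1.76 and 1.59 FPKM in thalamus positive and 0.245, 0.272, 0.239 and 0.258 in spinal cord positive libraries. The groups did not overlap, and the difference was -1.21 ± 0.25 (limma adjusted p = 0.00938, 4 of 4 mice), lost without mouse 2 or 3 (0.110 and 0.0562). Kcnh5 falls outside the naming rule because its higher group is under 2 FPKM, and was chosen after its values were seen. It entered the selection through thalamus libraries only, so its lower spinal cord level was bound by that selection. Another 12 voltage-gated members were not called in any comparison. Kcna2, at 17.0 to 45.3 FPKM, and Kcnq3, at 12.3 to 27.0, were the most abundant of these.

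**Figure D4:**
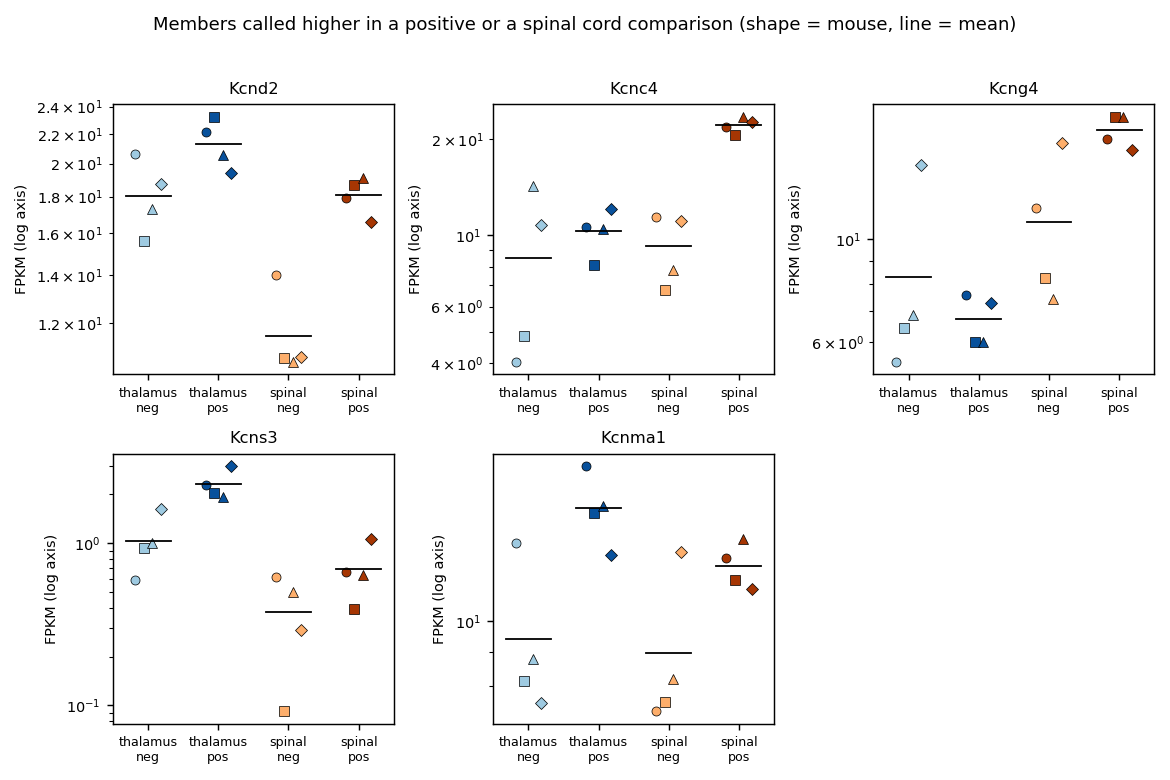
FPKM on a log axis of 5 members called higher in a positive or a spinal cord comparison; each symbol is 1 library, its shape the mouse, and the line the group mean. Kcnc4 is highest in the spinal cord positive libraries, Kcnd2 is lowest in the spinal cord negative libraries, and Kcns3 and Kcnma1 have their highest means in the thalamus positive libraries.

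Among the auxiliary subunits, Kcnip3 was at 475, 529, 400.3 and 408 FPKM in thalamus negative, 305, 325, 269.6 and 237 in thalamus positive, 987, 639, 444 and 483 in spinal cord negative and 632, 734, 702 and 657 in spinal cord positive libraries. The thalamus positive libraries were the lowest, below every other library. Kcnip3 was 2.40 times higher in spinal cord than thalamus positive libraries (1.27 ± 0.22, limma adjusted p = 0.00222, 4 of 4 mice), in all alternatives run. Within the thalamus it was lower in positive libraries (-0.67 ± 0.22, adjusted p = 0.0337, 4 of 4 mice). That call was lost without the negative library of mouse 1 or 2 (0.0546 and 0.0775), the positive library of mouse 1, 3 or 4 (0.0529, 0.0792 and 0.0970), or all of mouse 2, 3 or 4 (0.102 to 0.140), and with no filter (0.0506). In the spinal cord, where the negative library of mouse 1 was the highest of all, the gates overlapped and did not pass (0.16 ± 0.22, adjusted p = 0.641).

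Kcnmb4, an auxiliary subunit of the Kcnma1 channel, was at 9.97, 9.67, 13.8 and 6.19 FPKM in spinal cord negative and 3.50, 4.57, 2.31 and 3.13 in spinal cord positive libraries. In the thalamus it was at 4.10, 5.61, 2.08 and 0.436 FPKM in negative and 2.90, 3.66, 2.68 and 2.60 in positive libraries, so all 4 spinal cord negative libraries were above the other 12. It was lower in spinal cord positive than negative libraries by -1.30 ± 0.38 (limma adjusted p = 0.0267, 4 of 4 mice) and higher in spinal cord than thalamus negative ones by 1.60 ± 0.38 (adjusted p = 0.0144, 4 of 4 mice). The first call ended without the negative library of mouse 1 or 3 (0.0530 and 0.0729), the positive library of mouse 1, 3 or 4 (0.0535, 0.0785 and 0.0635) or all of mouse 1, 2 or 3 (0.0503 to 0.218), and with a pseudocount of 0.1 (0.0692). The second ended without mouse 1 or 3 (0.0539 and 0.129) and in a fit of the negative libraries alone (0.194). Exons of Kcnmb4 overlap 2 antisense genes. The other 7 auxiliary members were not called in any comparison.

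**Figure D5:**
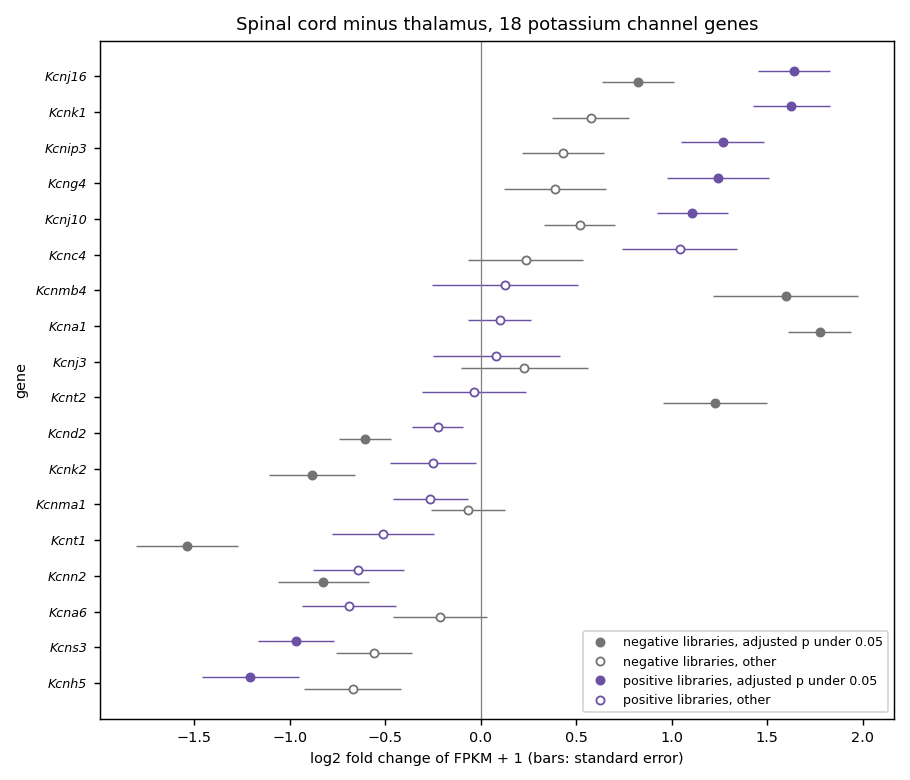
Log2 fold change of FPKM + 1, spinal cord minus thalamus, in the negative and the positive libraries, for 18 members called in at least 1 comparison; bars are standard errors and filled points have an adjusted p under 0.05. Kcnj16 is the only member called in both, at 0.82 in negative and 1.64 in positive libraries.

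A list of 38 other genes of potassium transport and of inward rectifier anchoring was read beside the channels, and 26 of them reached the level minimum. In the thalamus 1 of 26 was called higher and 10 lower in positive libraries, against 11.6% and 13.6% of all features. In the spinal cord these were 4 and 7, against 9.04% and 10.5%. Between regions, 5 were called in negative and 7 in positive libraries, each of them higher in the spinal cord, against 5.27% and 4.22% of all features. For the difference of gates 1 was called, lower, against 1.43%. The medians of these 26 were -0.31, 0.20, 0.12, 0.36 and 0.30 on the log2 scale, in that order.

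The sodium pump moves potassium into cells. Atp1b2, its glial beta subunit, rose from 3876 ± 139.9 FPKM in spinal cord negative to 6586 ± 541 in spinal cord positive libraries (SD, n = 4; 0.76 ± 0.19, limma adjusted p = 0.00986, 4 of 4 mice), a call lost without mouse 3 or 4 (0.0920 and 0.0662) and with no filter (0.0535). It was also higher in spinal cord than thalamus positive libraries (1.54 ± 0.19, adjusted p = 0.000114), as was Aqp4 (1.39 ± 0.19, adjusted p = 0.000418), each in 4 of 4 mice. Kcnj10 and Kcnj16 were called in the same comparison and direction. So were 6 of the 12 astrocyte markers, Aqp4 among them, with 1 called lower (4.22% and 1.88% of all features).

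Lgi1, a secreted protein that is found with Kcna1 channels in neurons, was higher in positive libraries of the thalamus (62.2 ± 8.77 against 23.3 ± 2.12 FPKM, 1.37 ± 0.12, limma adjusted p = 2.14e-06) and of the spinal cord (171 ± 7.56 against 63.4 ± 2.79 FPKM, 1.42 ± 0.12, adjusted p = 1.19e-06), in 4 of 4 mice each. It was also higher in the spinal cord in negative (1.41 ± 0.12, adjusted p = 3.13e-06) and positive libraries (1.46 ± 0.12, adjusted p = 3.10e-06). Slc12a2, a cotransporter that brings in sodium, potassium and chloride, was lower in spinal cord positive libraries (-2.38 ± 0.19, adjusted p = 5.93e-07, 4 of 4 mice) and higher in spinal cord than thalamus negative ones (1.19 ± 0.19, adjusted p = 0.000838, 4 of 4 mice). Its call for the difference of gates (-1.12 ± 0.27, adjusted p = 0.0402) was lost in 19 of the 25 alternatives that gave a value, with adjusted p up to 0.211, among them the mouse as a block (0.0726) and leaving out any single thalamus positive or spinal cord positive library (0.0623 to 0.102), the thalamus negative library of mouse 2 or 4 (0.0613 and 0.0633) or the spinal cord negative library of mouse 1, 2 or 4 (0.0569 to 0.0721).

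Others of the list that were called lower in positive libraries were Fxyd1 (-1.77 ± 0.24), Atp1b1 (-1.64 ± 0.27) and Abcc9 (-1.45 ± 0.26) in the thalamus, and Fxyd5 (-2.30 ± 0.49) and Fxyd6 (-2.27 ± 0.33) in the spinal cord, with limma adjusted p of 0.000126, 0.000577, 0.00113, 0.00419 and 0.000217. Abcc9 encodes the regulatory partner of Kcnj8 and is also 1 of the 8 mural markers. Dtna (0.71 ± 0.18, adjusted p = 0.0121) and Dag1 (0.61 ± 0.20, adjusted p = 0.0405), of the complex that anchors inward rectifiers at end-feet, were called higher in spinal cord positive libraries. Fxyd5 (1.78 ± 0.49, adjusted p = 0.0323) was higher in spinal cord than thalamus negative libraries. The Fxyd5 spinal cord gate call ended without mouse 1 (0.0510) and that of Dtna without mouse 3 or 4 (0.0747 and 0.0919). The Dag1 call was lost in 14 of 26 alternatives (up to 0.195), among them leaving out the spinal cord negative library of mouse 1 or 2 (0.103 and 0.0941), any spinal cord positive library (0.0642 to 0.101) or the thalamus positive library of mouse 3 or 4 (0.0545 and 0.0540). The Fxyd5 call between regions was lost in 10 (up to 0.276), among them leaving out the thalamus negative library of mouse 1, 2 or 4 (0.0649 to 0.0862) or the spinal cord negative library of mouse 1 or 3 (0.0728 and 0.0868).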

How the data were processed

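RNA of 16 libraries of sorted astrocytes (4 groups, 4 mice) was isolated with a Qiagen micro kit and amplified with the NuGEN RNA-Seq V2 kit, per the labels' protocols. The submitters' processing notes name TopHat2 2.0.11 and Bowtie2 2.2.3, as well as HTSeq 0.6.1p1, Cufflinks with Cuffnorm, FastQC, DESeq2 and the build GRCm38, with no role stated. Whether counting used strand is not stated, so reads of overlapping genes cannot be told apart. The values analysed are the FPKM that the authors deposited for 39171 features. The authors' deposited comparison table gives group means in FPKM and, per the file headers, a base mean (a signal), the log2 fold change, its SE, the test statistic (a score) and p-values, raw and adjusted. From that table only the Kcnk1 row, the number of features and the largest adjusted p are quoted. Depth is unknown, and a value listed at 0 can be a failed estimate.

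Groups and mouse numbers come from the sample titles. For the 16340 features that reached 1 FPKM in 4 or more libraries, log2(FPKM + 1) was modelled in limma 3.58.1 (R 4.3.3), using 1 coefficient per group, a trended prior and Benjamini-Hochberg adjustment over all features, for 5 comparisons, and calls have an adjusted p under 0.05. The fit was tested on simulated data with the same spread in every group, so that run cannot speak to groups of unequal spread. Kcnj10 and Kcnj16 were also tested by exact permutation of mean FPKM, with scipy 1.17.1. The members and gene lists were chosen with earlier results of these data known. Named members were Kcnj10, Kcnj16, the 6 most abundant, and in each comparison up to 6 called members a direction (3 for the difference of gates) by size of change, if the higher group averaged 2 FPKM or more and, except for the difference of gates, 4 of 4 mice changed the same way. From the potassium handling list up to 4 called genes a direction were named. Some genes that these rules select, 1 member among them, are counted but not reported here. Replicates of a group are separate mice.

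The mouse numbers pair the libraries, since the labels give 1 number to all libraries of an animal. Correlations of the deviations from group means averaged 0.0358 over the 24 same-mouse pairs (-0.0135 to 0.0919) and -0.0119 over the 72 other pairs. No 2 libraries were identical. Coordinates and exon overlaps are from the GENCODE annotation of GRCm38, in which 19 of the 42 members overlap an exon of another gene, and 32 members had a RefSeq start-site region. The alternatives were a pseudocount of 0.1, a minimum of 5 FPKM, no filter beyond a value above 0, median-of-ratios rescaling, the mouse as a replicate block, a fit of only the groups compared, and leaving out each library or mouse in turn.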

Additional observations from a re-analysis of the deposited data

Results flagged for a closer look

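In 4 of 76 groups of 4 libraries looked at among the named members, 1 library stood far from the other 3 of its group, and chance alone flags about 1 group in 20. Kcnd2 was at 14.0 FPKM in the spinal cord negative library of mouse 1, where the other 3 lay between 10.6 and 10.8. Kcng4 was at 14.5 FPKM in the thalamus negative library of mouse 4, where the other 3 lay between 5.43 and 6.84. Kcnh5 was at 2.86 FPKM in the thalamus positive library of mouse 2, against 1.54 to 1.76. Kcnma1 was at 12.7 FPKM in the spinal cord negative library of mouse 4, against 7.31 to 8.19.

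The gate change of Kcna1 differed between the regions by limma's test of that difference, at -1.68 ± 0.23 on the log2 scale (spinal cord minus thalamus, adjusted p = 0.00138). This call ended with a pseudocount of 0.1 (adjusted p = 0.0621) or a minimum of 5 FPKM (0.0680). Positive libraries averaged only 0.0710 FPKM (thalamus) and 0.147 (spinal cord). With 1 added before the log, the negative level bounded the fall in each region. Spinal cord minus thalamus was 1.78 ± 0.17 in negative and 0.10 ± 0.17 in positive libraries. The difference of gates therefore largely restates that between negative libraries, and the 2 are not separate results. In every one of the 4 mice the positive library was lower in both regions. Beside it, the summed oligodendrocyte markers were at 3557 to 3756 FPKM in spinal cord negative and 478 to 992 in thalamus negative libraries. The precursor markers were at 480 to 550 and 227 to 322, and the endothelial markers at 21.4 to 38.3 and 9.04 to 17.2. Ependymal markers went the other way, at 110.0 to 156 and 332 to 612. The part of any of these cell types in the difference was not tested.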

How the results depend on the processing

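Of the 37 calls of members over the 5 comparisons, 14 held in all of up to 26 alternatives and 0 changed direction. Among the 14 are gate calls of Kcna1, Kcnj3 and Kcnt2. These members entered through negative libraries only, so the direction of those calls was bound by the selection. Counts of called members are given beside those of all features. In the thalamus gate comparison it was 9 and ran from 3 to 11, lowest without mouse 3, with 5 without mouse 2, 4 without mouse 4 and 5 without the thalamus positive library of mouse 4, while all features had 4119 calls, and 2249 without mouse 3. In the spinal cord it was 11 and ran from 7 (without mouse 3) to 13, with 3196 calls over all features and 1861 without mouse 3. The difference of gates had 1 call, 0 with a pseudocount of 0.1 and 0 with a minimum of 5 FPKM, and 1 to 4 when libraries were left out, with 3 without the thalamus negative library of mouse 1, 4 without the negative spinal cord library of mouse 1 and 2 without that of mouse 2, where all features had 418 calls and 302, 271, 659, 514 and 376 in these 5 settings, in that order. Between negative libraries of the regions the count was 8, and 1 in a fit of these groups only (1603 and 353 over all features). Over the libraries and mice left out it ran from 3 to 10. It was 3, 4 and 10 without mouse 3, mouse 4 and the thalamus negative library of mouse 1 (1078, 976 and 1759). Between positive libraries it was 8, and 21 in a fit of these groups only (996 and 4227 over all features). With libraries or mice left out it ran from 3 to 12. It was 4, 3 and 12 without mouse 2, mouse 3 and the thalamus negative library of mouse 1 (457, 368 and 1402). The cause was not tested. With the mouse as a replicate block the counts were 9, 11, 1, 8 and 9, and no member described here lost a call. Over all features these were 4107, 3205, 343, 1541 and 981. Median-of-ratios rescaling moved the median log2 change of all features by at most 0.0176 in size, in a fall of the spinal cord gate median from 0.0866 to 0.0690.

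In the exact permutation tests of mean FPKM, pairing by mouse (sign flips as a replicate block) left the differences at 377 (Kcnj10) and 145 (Kcnj16) between positive libraries, 84.3 (Kcnj16) between negative libraries and -40.1 (Kcnj16) in the thalamus gates, with p = 0.125, the smallest that 4 pairs allow. With a library left out these ran from 353 to 399, 137 to 152, 61.5 to 95.9 and -48.2 to -28.9, each with p no smaller than 0.0571, which 4 against 3 libraries set. Depth, which is unknown, and the low FPKM of Kcna1, Kcnj3 and Kcnt2 in positive libraries limit how exactly their folds are known.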
